A study of Mus musculus with 12 samples.

Results

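Msln, Wt1, Upk1b, Upk3b and Lrrn4, which mark the mesothelium, were examined in RNA from mouse lung preparations labelled as alveolar type 2 cells (AEC2). They were the listed mesothelial markers that the files held once Ensembl identifiers were mapped to mouse symbols, 5 of 5, among 16080 genes in all. The 12 libraries came from female Bl6 mice aged P56, 4 each of SP-C genotype WT, C185Gneo and C185G. The study describes C185Gneo as a hypomorphic control and compares C185G, a BRICHOS mutant of surfactant protein C, with both controls to find how transcription changes once the mutant is expressed. Per the labels, all 3 genotypes had the same treatment: tamoxifen was injected intraperitoneally at 200 mg/kg on 2 days, and AEC2 were isolated on day 7. Lungs were dissociated with Dispase, cells that stuck to plastic were discarded as mesenchymal, and CD45+ cells were depleted with beads, so no step was aimed at mesothelial cells. Neither the driver of the tamoxifen-induced allele nor whether libraries came from separate animals is stated, so that the p-values speak of the spread among these libraries, possibly a technical one.

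The mesothelium is a thin sheet of flattened cells that covers the lung on its pleural side and secretes a lubricating fluid. Its cells are epithelial in shape and keratin content but arise from mesoderm, and they share some genes with fibroblasts. WT1, a zinc finger transcription factor, is needed for mesothelial development. Mesothelin (Msln) is a surface glycoprotein anchored by a lipid tail. Upk1b and Upk3b encode uroplakins, membrane proteins best known from the bladder lining, and Lrrn4 encodes a membrane protein with leucine-rich repeats.

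Promoter sequence was at hand for Upk3b and Lrrn4, the 2 markers whose levels did not follow those of the other 3 in C185G. None was at hand for Msln, Wt1 and Upk1b, so motifs were not compared between the 2 markers and the other 3. The windows are those of RefSeq (GRCm38.p6), from 250 bases before to 50 after the gene start, and are printed 5′ to 3′ on the strand of the gene. Upk3b lies at chr5:136038246-136038545 on the plus strand and Lrrn4 at chr2:132880813-132881112 on the minus strand. Capitals mark the match to GGAATG, the core motif of the TEAD factors, in either orientation.
Upk3b: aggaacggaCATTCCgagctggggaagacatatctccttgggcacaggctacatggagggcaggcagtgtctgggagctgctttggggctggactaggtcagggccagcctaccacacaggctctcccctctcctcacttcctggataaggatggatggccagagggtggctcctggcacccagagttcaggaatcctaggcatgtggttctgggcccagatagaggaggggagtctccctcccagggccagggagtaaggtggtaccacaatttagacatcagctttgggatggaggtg
Lrrn4: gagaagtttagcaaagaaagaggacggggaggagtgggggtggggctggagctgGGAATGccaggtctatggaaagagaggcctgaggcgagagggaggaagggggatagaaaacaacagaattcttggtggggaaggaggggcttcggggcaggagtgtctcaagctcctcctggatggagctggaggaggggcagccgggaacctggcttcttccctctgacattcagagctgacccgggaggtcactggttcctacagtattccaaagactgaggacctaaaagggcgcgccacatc
Each window held 1 match, on the reverse strand (CATTCC) at -241 in Upk3b and on the gene's strand at -196 in Lrrn4, counted from the RefSeq gene start of each window. For Lrrn4 the GENCODE gene given next begins further upstream than the RefSeq start, and for Upk3b both begin at the same base. The motif is common: 14.7% of the 32851 RefSeq promoter windows of this length hold it on 1 of their strands. Neither window held GCGTGGG, a WT1 motif (5.04% of windows), GCGGGGGCG, which WT1 shares with the EGR factors (2.91%), GGGCGG of SP1 (35.7%) or TATAAA (13.6%), searched on both strands. GCGGGGGCG and GGGCGG share letters with each other.

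In GRCm38 Msln (ENSMUSG00000063011) spans 25748613 to 25754378 on the minus strand of chromosome 17, and Upk1b (ENSMUSG00000049436) spans 38773184 to 38800328 on the minus strand of chromosome 16. Wt1 (ENSMUSG00000016458) spans 105126529 to 105173616 on the plus strand of chromosome 2, where Lrrn4 (ENSMUSG00000043110) also lies, from 132868305 to 132880891 on the minus strand. Upk3b (ENSMUSG00000042985) spans 136038496 to 136046487 on the plus strand of chromosome 5. All are annotated as protein-coding, and values are sums over whole genes, so exons and isoforms are not told apart.

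All 5 markers were measured with many reads in every library. The smallest count was 63 reads, for Wt1 in C185Gneo replicate 1. Levels below are normalized CPM, counts on the authors' scaling brought to a CPM scale, and 1 read was worth 0.0428 to 0.0616 CPM. Per kilobase of annotated exon, which allows genes to be compared, the WT level was 53.6 ± 7.10 CPM for Msln (SD, n = 4) and 42.8 ± 7.63 for Upk3b. Lrrn4 and Upk1b followed at 14.5 ± 1.61 and 14.2 ± 1.62 CPM per kilobase, and Wt1 at 3.23 ± 0.376. Msln and Upk3b overlapped in WT, as did Lrrn4 and Upk1b, whereas Wt1 lay below every WT value of the other 4. In C185Gneo the levels were 42.4 ± 28.5 CPM per kilobase for Msln, 34.7 ± 23.35 for Upk3b, 11.1 ± 7.15 for Upk1b, 10.45 ± 6.89 for Lrrn4 and 2.385 ± 1.59 for Wt1, and each overlapped the next in this order. In C185G they were 110.1 ± 13.2 for Msln, 40.4 ± 10.5 for Upk3b, 27.35 ± 5.07 for Upk1b, 13.3 ± 2.50 for Lrrn4 and 6.04 ± 0.970 for Wt1, and of these neighbours only Upk3b and Upk1b overlapped.

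Total counts were 15659512 to 23444287 per library, the largest in C185Gneo replicate 1. Sftpc, the edited gene, was at 7211 to 7674 CPM in WT libraries, at 772 to 1080 in C185Gneo ones and at 2471 to 3059 in C185G. Libraries are assigned by the genotype field, since the titles of C185Gneo libraries carry the name C185G. The 10 AEC2 markers, Sftpc among them, summed to 34390 to 40400 CPM in WT, to 31940 to 35690 in C185Gneo, which overlapped WT, and to 13300 to 16100 in C185G. Without Sftpc the other 9 had a sum of 10240 to 13260 CPM in C185G, below the 27180 to 32950 of WT and the 31170 to 34610 of C185Gneo. The 5 mesothelial markers summed to 351 to 496 CPM in WT, so mesothelial markers were present beside those of AEC2. What share of the RNA came from either cell type was not measured. C185Gneo replicate 1 stood apart in these 5 genes and is described first, because fits that hold it have a wider error for them.

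C185Gneo replicate 1 had the lowest level of every marker among all 12 libraries. Its log2 value lay below the mean of C185Gneo replicates 2 to 4 by 2.42 for Msln, 2.73 for Wt1, 2.54 for Upk3b, 2.41 for Lrrn4 and 2.31 for Upk1b, which is 4.96-fold lower for Upk1b and 6.65-fold lower for Wt1. Among 15435 genes with a mean of at least 1 CPM, 112 were lower by more than 2 log2 units in this library than in the other 3 of its group, against 5 to 28 genes in each of the other 11 libraries treated alike. All 5 markers were among the 112, and the median over all genes was -0.001. C185Gneo replicate 4 lay at the other end and was the highest library of its group for all 5 markers. The ratio of the highest to the lowest library in C185Gneo was 7.54 for Upk1b to 9.98 for Wt1. In WT this ratio was 1.30 to 1.55 and in C185G 1.33 to 1.94 over the 5 markers. Without replicate 1 it was 1.82 to 2.37 in C185Gneo.

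The genes that were low in C185Gneo replicate 1 included other mesothelial genes. Of 12 further mesothelial genes with a mean of at least 1 CPM, 6 were lower by more than 2 log2 units, with a median of -1.99. None of 15 mesenchymal markers passed that limit, but their median was -1.28. Of 8 alveolar type 1 markers 3 passed it (median -1.07), and of 11 endothelial markers none (median -0.11, with the summed level at 0.884 of that in the other 3). The AEC2 markers were at 1.09 times the level of the other 3 libraries, against 0.171 for the 5 mesothelial markers and 0.407 for the mesenchymal ones. The preparations' cell make-up was not measured, and in bulk RNA fewer mesothelial cells and less RNA of these genes per cell cannot be told apart.

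**Figure D1:**
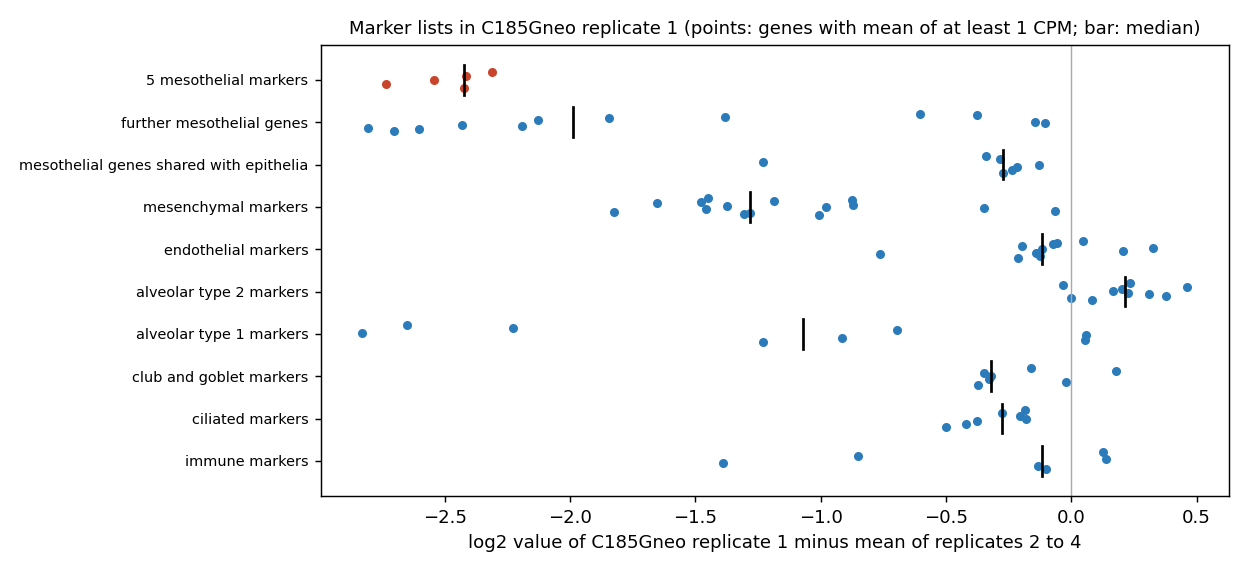
Log2 value in C185Gneo replicate 1 minus the mean of C185Gneo replicates 2 to 4 for each gene of 10 marker lists (points), with the median of each list as a bar. The 5 mesothelial markers (top) lie between -2.73 and -2.31, while AEC2 and endothelial markers lie around 0.

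Msln, Wt1 and Upk1b were higher in every C185G library than in any control library. Msln in the WT libraries was at 142, 159, 161 and 194 CPM (replicates 1 to 4). The C185Gneo libraries were at 28.6, 98.8, 157 and 235 CPM, and the C185G libraries at 283, 376, 358 and 331. The lowest C185G library thus exceeded the highest control library, and C185Gneo overlapped WT. The group means were 164 ± 21.7 CPM (WT), 129.8 ± 87.4 (C185Gneo) and 337 ± 40.35 (C185G), each with its SD over 4 libraries.

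Wt1 was at 18.0, 19.6, 19.2 and 23.4 CPM in WT. It was at 2.69, 14.8, 14.75 and 26.9 CPM in C185Gneo libraries and at 30.4, 44.8, 35.7 and 38.7 in C185G. C185G again lay above both controls, with means of 20.02 ± 2.33, 14.8 ± 9.87 and 37.4 ± 6.01 CPM in WT, C185Gneo and C185G. Upk1b, whose product is a tetraspanin that pairs with uroplakins of the other class, was at 25.3, 29.0, 31.5 and 33.0 CPM in WT. Its C185Gneo libraries were at 5.56, 20.6, 24.5 and 41.9 CPM and its C185G libraries at 45.6, 70.8, 58.8 and 53.3. The lowest C185G library was above the highest C185Gneo library by less than 4 CPM, but no values overlapped. The means were 29.7 ± 3.38, 23.15 ± 14.9 and 57.1 ± 10.6 CPM.

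Upk3b and Lrrn4 did not share this pattern. Upk3b, a single-pass uroplakin, was at 119.7, 153, 146 and 185.1 CPM in WT. The C185Gneo libraries were at 25.3, 109, 130.2 and 226 CPM and the C185G libraries at 149, 185.5, 141 and 95.5. All groups overlapped, and C185G replicate 4, the lowest of its group, lay below every WT library. The means were 151 ± 26.9, 122.5 ± 82.4 and 143 ± 37.0 CPM.

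Lrrn4 was at 45.8, 53.8, 56.6 and 59.8 CPM in WT. It was at 8.72, 38.5, 36.8 and 71.3 CPM in C185Gneo libraries and at 50.3, 54.2, 57.2 and 36.2 in C185G. C185G replicate 4 was again the lowest of its group and below every WT library. The means were 54.0 ± 5.98, 38.8 ± 25.6 and 49.5 ± 9.27 CPM.

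**Figure D2:**
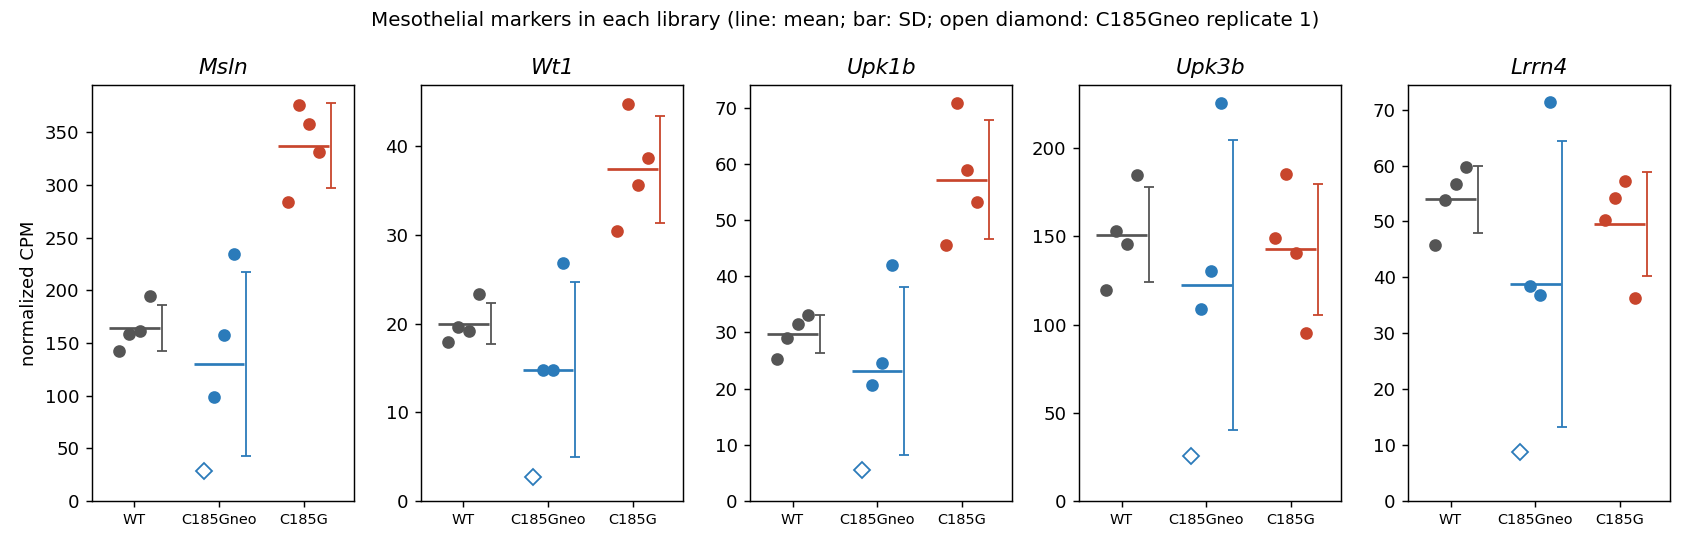
Normalized CPM of the 5 markers in each library by genotype, with the group mean (line) and SD (bar, n = 4). C185G libraries lie above all controls for Msln, Wt1 and Upk1b and among them for Upk3b and Lrrn4, and C185Gneo replicate 1 (open diamond) is the lowest library in every panel.

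Between C185G and C185Gneo, Msln, Wt1 and Upk1b rose and Upk3b and Lrrn4 did not pass the test. In a limma fit of all 12 libraries, with Benjamini-Hochberg adjustment over 16080 genes, Msln rose by 1.73 on the log2 scale (SE 0.511, adjusted p = 0.0140). Wt1 rose by 1.72 (limma, SE 0.555, adjusted p = 0.0214) and Upk1b by 1.60 (SE 0.486, adjusted p = 0.0160). Upk3b differed by 0.55 (95% interval -0.66 to 1.76, limma adjusted p = 0.410) and Lrrn4 by 0.67 (-0.45 to 1.79, adjusted p = 0.281). The 3 of 5 markers called stand beside 57.8% of all genes called in this comparison, 29.2% in the upward direction. Their groups did not overlap, as in 25.7% of all genes in that direction. The sizes rest in part on C185Gneo replicate 1: without it the differences were 1.12 for Msln, 1.04 for Wt1 and 1.03 for Upk1b (limma adjusted p = 0.00264, 0.000967 and 0.00228), with 54.9% of all genes called. Upk3b was then at -0.09 (-0.71 to 0.54, limma adjusted p = 0.816) and Lrrn4 at 0.07 (-0.44 to 0.57, adjusted p = 0.828). When the fit held the 8 libraries of these 2 groups alone, Wt1 missed the threshold (limma adjusted p = 0.0513; 54.6% of all genes called).

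Against WT the same 3 markers were higher in all 4 C185G libraries, but whether the difference passed the test depended on C185Gneo replicate 1, a library outside the comparison. In the fit of all 12 libraries none of the 5 was called, against 55.0% of all genes (27.3% upward). Msln differed by 1.04 (SE 0.511, 95% interval -0.09 to 2.17, limma adjusted p = 0.108). Wt1 differed by 0.89 (SE 0.555, limma adjusted p = 0.196) and Upk1b by 0.93 (SE 0.486, adjusted p = 0.128). The error in that fit is shared by the 3 groups and so takes in the spread within C185Gneo. Without C185Gneo replicate 1 the differences are the same and their SE falls to 0.222, 0.185 and 0.203 for Msln, Wt1 and Upk1b, and all 3 were called (limma adjusted p = 0.00252, 0.00147 and 0.00244; 56.2% of all genes called). With the 8 WT and C185G libraries alone they were called too (limma adjusted p = 1.86e-05, 0.000109 and 0.000164; 53.9% of all genes called). For all 3 markers the C185G and WT libraries did not overlap, as was so for 25.2% of all genes in the upward direction.

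Upk3b and Lrrn4 showed no called difference from WT. Upk3b differed from WT by -0.10 and Lrrn4 by -0.14 (limma adjusted p = 0.888 and 0.834). The 95% intervals were -1.31 to 1.11 and -1.26 to 0.98. Without C185Gneo replicate 1 they were -0.68 to 0.47 for Upk3b and -0.61 to 0.33 for Lrrn4, and a rise as large as the 1.04 of Msln then lay outside both. Between C185Gneo and WT no marker was called, against 0.541% of all genes. The differences lay between -0.83 for Wt1 and -0.65 for Upk3b (limma adjusted p = 0.726 and 0.794). Without C185Gneo replicate 1 they were -0.02 for Upk3b to -0.21 for Lrrn4 (limma adjusted p = 0.999 and 0.967; 0.267% of all genes called).

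**Figure D3:**
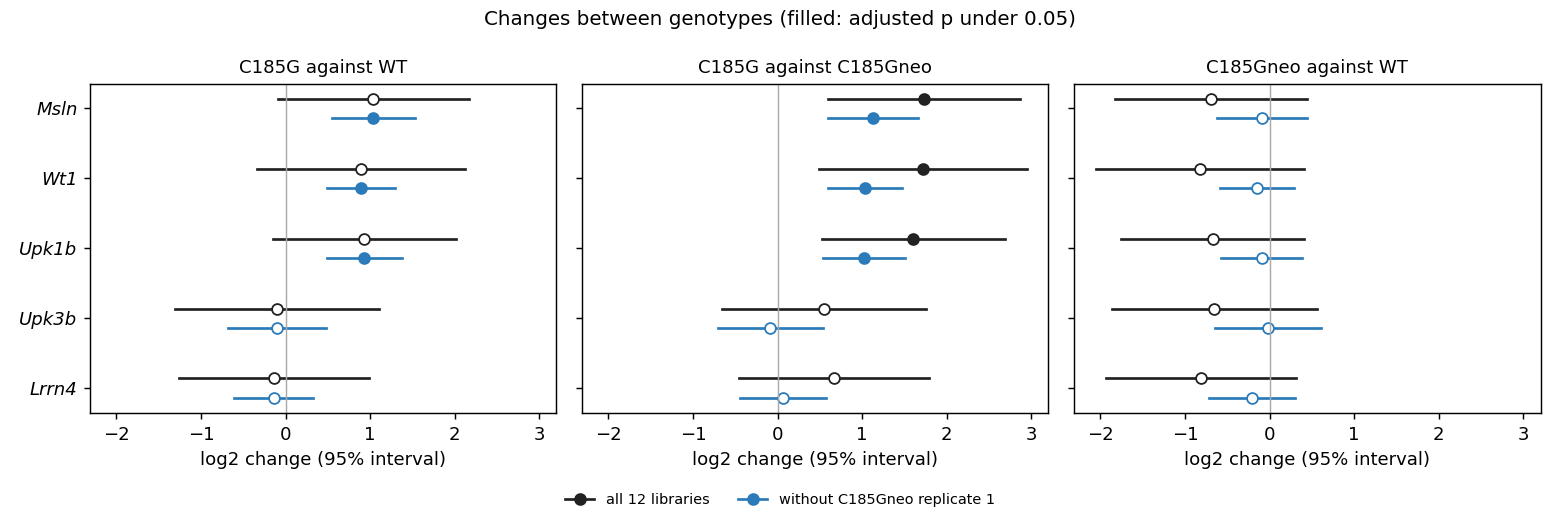
Log2 change of the 5 markers in the 3 comparisons with 95% intervals, from limma on all 12 libraries (black) and without C185Gneo replicate 1 (blue), filled where the adjusted p was under 0.05. Leaving out that library narrows every interval, and Msln, Wt1 and Upk1b then pass against both controls while Upk3b and Lrrn4 pass in neither.

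The split of the markers into 3 and 2 was examined within each library, where a level shared by all 5 drops out. Msln exceeded Upk3b by 0.25, 0.05, 0.15 and 0.07 log2 units in the WT libraries. The C185Gneo libraries gave 0.18, -0.14, 0.27 and 0.05, and the C185G libraries 0.93, 1.02, 1.35 and 1.79. C185Gneo replicate 1, with the first of the C185Gneo values, lay inside the control range on this measure. In all 4 C185G libraries the gap was larger than in any of the 8 control libraries.

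All 10 pairs of markers were compared in the 3 contrasts, 30 exact two-sided permutation tests in all, with a smallest p of 0.0286 for 4 against 4. The 6 pairs that set Msln, Wt1 or Upk1b against Upk3b or Lrrn4 did not overlap between C185G and WT, or between C185G and C185Gneo. They shifted by 0.998 to 1.18 log2 units against WT (2.00-fold to 2.27-fold) and by 0.94 to 1.18 against C185Gneo, always towards more of Msln, Wt1 or Upk1b. All 12 of these tests gave the smallest p possible, 0.0286 by exact permutation, and 0.0714 after Benjamini-Hochberg adjustment over the 30, so none passed 0.05 when adjusted. The split of the markers was taken from these same values. The pairs share genes, and both comparisons share the C185G libraries, so the 12 tests are not separate results. What share of all gene pairs would not overlap was not computed. Of single genes, 25.2% did not overlap upward against WT and 25.7% against C185Gneo. Pairs within Msln, Wt1 and Upk1b, and the pair of Upk3b and Lrrn4, moved by at most 0.145 against WT and 0.125 against C185Gneo (exact p = 0.0571 to 0.943 by permutation). Between C185Gneo and WT none of the 10 pairs reached the smallest p (exact permutation p = 0.143 to 0.943).

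**Figure D4:**
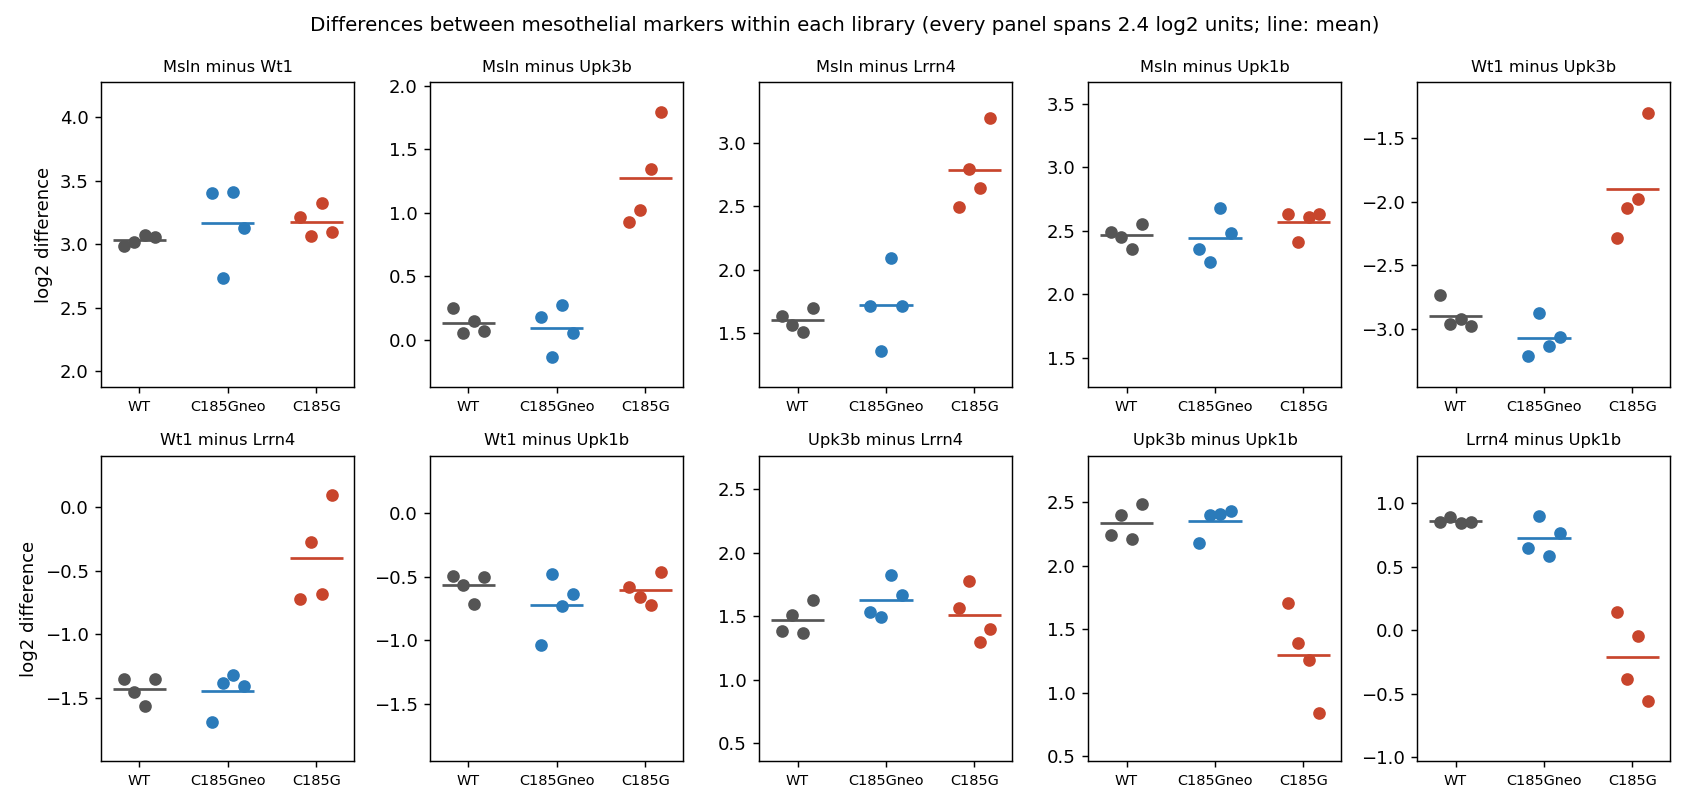
Log2 difference between each pair of markers within each library by genotype, with the group mean as a line and an equal span of log2 units in every panel. The 6 pairs that join Msln, Wt1 or Upk1b with Upk3b or Lrrn4 separate C185G from both controls, and the other 4 pairs do not.

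Across libraries of 1 genotype the 5 markers moved together. Over the deviations of the 12 libraries from their group means, Pearson r between markers was 0.947 to 0.988 with a median of 0.964. Without C185Gneo replicate 1, over the 11 other libraries, r was 0.703 to 0.940 (median 0.806), highest for Wt1 with Upk1b. These points share the depth and scaling of their library, and no test applies to them. In the same measure over 15435 genes, the genes most like Msln were Sema3d (r = 0.991, 12 libraries), Dab2, Upk1b, Sbsn and Gpc3. For Wt1 they were Upk1b (r = 0.988), Dab2, Ephb1, Ces2g and Bst1, and for Upk1b they were Gpc3 (r = 0.995), Sema3d, Dab2, Ces2g and Rspo1. For Upk3b they were Rarres2 (r = 0.993), Igfbp5, Sulf1, Aldh1a2 and Nkain4, and for Lrrn4 they were Rarres2 (r = 0.991), Gpm6a, Aldh1a2 and Palm. The number of genes with r above 0.9 was 157 to 182 per marker, and 15 to 30 without C185Gneo replicate 1. The genes named also depend on that library, and without it other genes entered the top 5 of every marker. Sema3d then stayed first for Msln, Rarres2 for Lrrn4 and Gpc3 for Upk1b. Ces2g came first for Wt1 (r = 0.951) and Igfbp6 for Upk3b (r = 0.979).

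Some of the genes most like Msln, Wt1 and Upk1b also differed between genotypes, a measure that the deviations from group means leave out. Against C185Gneo, Sema3d, a secreted semaphorin, rose by 1.32 (limma adjusted p = 0.0255), and Dab2, an endocytic adaptor, by 1.37 (adjusted p = 0.0270). Gpc3, a cell-surface proteoglycan, rose by 1.19 (limma adjusted p = 0.0329), Ces2g, a carboxylesterase, by 1.59 (adjusted p = 0.00824) and Bst1 by 1.28 (adjusted p = 0.0314). Sbsn, Ephb1 and Rspo1 were not called (limma adjusted p = 0.0816, 0.0576 and 0.0553). Of all genes 57.8% were called in this comparison, 29.2% upward. The sizes of these changes rest in part on C185Gneo replicate 1. Without it they were 0.79 for Sema3d, 0.82 for Dab2, 0.69 for Gpc3, 1.07 for Ces2g and 0.72 for Bst1. All 5 were still called (limma adjusted p = 0.00103 to 0.0121), and Ephb1 (0.63) and Rspo1 (0.57) were called too (adjusted p = 0.0304 and 0.0258). That fit called 54.9% of all genes. Of the genes most like Upk3b or Lrrn4, Rarres2, Igfbp5, Sulf1, Aldh1a2, Nkain4, Gpm6a and Palm were not called. Rarres2, which encodes the chemoattractant chemerin, differed by 0.44 (limma adjusted p = 0.493), and Aldh1a2, which makes retinoic acid, by 0.98 (adjusted p = 0.115). With C185Gneo replicate 1 left out Rarres2 was at -0.19 and Aldh1a2 at 0.37 (limma adjusted p = 0.493 and 0.110). Against WT, Ces2g alone of the genes named here was called (1.14, limma adjusted p = 0.0425), beside 55.0% of all genes. When C185Gneo replicate 1 was left out, Sema3d (0.73), Dab2 (0.85), Gpc3 (0.54), Bst1 (0.75) and Sbsn (0.35) were called against WT as well (limma adjusted p = 0.00641, 0.00245, 0.0250, 0.00251 and 0.0477). Of all genes 56.2% were then called against WT.

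A list of 16 further mesothelial genes, 13 of them in the files, was mixed. Against C185Gneo 4 rose, none fell and 9 were not called, with a median of 1.07 where the median over all genes was 0.0038. Of all genes 57.8% were called in this comparison, 29.2% upward, and without C185Gneo replicate 1 the median of the 13 was 0.46. Prg4, which encodes the lubricant lubricin, rose by 4.18 (limma adjusted p = 3.62e-09), from 2.13 ± 0.307 to 40.5 ± 13.2 CPM. Bnc1, a zinc finger factor of mesothelium and keratinocytes, rose by 1.58 (limma adjusted p = 0.0246), Ildr2 by 1.57 (adjusted p = 0.00690) and Lrrn4cl by 0.55 (adjusted p = 0.00402). Against WT 2 rose, Prg4 by 4.24 and Lrrn4cl by 0.40, and 2 fell, Dmkn at -0.40 and Fgf9 at -0.50 (limma adjusted p = 3.54e-09, 0.0264, 0.0251 and 0.0495), with a median of 0.41 and 55.0% of all genes called. Fgf9 is a growth factor of pleural mesothelium in the developing mouse lung. Without C185Gneo replicate 1, Bnc1 (0.93) and Ildr2 (0.89) rose against WT as well (limma adjusted p = 0.00242 and 0.00425). This makes 4 up and 2 down of the 13, beside 56.2% of all genes called. Rspo1 then rose against C185Gneo (0.57, limma adjusted p = 0.0258), which makes 5 up and 0 down, beside 54.9% of all genes called. None of the 13 was called between C185Gneo and WT, against 0.541% of all genes. Prg4 was not low in C185Gneo replicate 1 (log2 difference -0.11 from the other 3), unlike Bnc1 (-2.70), Gpm6a (-2.60) and Nkain4 (-2.81).

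Gpm6a, a membrane glycoprotein, and Aldh1a2 overlapped between genotypes, as did Upk3b and Lrrn4. Against WT their changes were upward, though, and those of Upk3b and Lrrn4 downward, none of them called. Without C185Gneo replicate 1, Gpm6a and Aldh1a2 differed from C185Gneo by 0.417 and 0.37, and Upk3b and Lrrn4 by -0.086 and 0.065. Gpm6a was at 77.3 ± 9.08 CPM (WT), 56.2 ± 36.75 (C185Gneo) and 92.9 ± 19.5 (C185G), and it was called in no comparison (against WT 0.25, limma adjusted p = 0.719). Aldh1a2 was at 50.4 ± 5.23 CPM in WT and 57.6 ± 10.5 in C185G (limma adjusted p = 0.784). For Bnc1 and Ildr2, as for Msln, C185G libraries lay above every control, for Bnc1 by a small margin (78 reads against 68). Of all genes, 25.2% did not overlap upward against WT and 25.7% against C185Gneo. Bnc1 was at 2.34 to 3.58 CPM (WT), 0.428 to 3.95 (C185Gneo) and 4.02 to 6.54 (C185G), and Ildr2 at 10.1 to 14.4, 3.04 to 16.7 and 18.0 to 30.2. Rspo1 (0.41) and Nkain4 (0.43) changed against WT by more than Gpm6a and by less than Bnc1 or Ildr2. Neither was called (limma adjusted p = 0.471 and 0.568). Wt1os, a transcript annotated on the opposite strand just outside the start of Wt1, had 10, 17, 10 and 14 counts in WT, 0, 9, 7 and 19 in C185Gneo and 21, 21, 21 and 16 in C185G. With these counts and no strand setting given, Wt1os is uncertain and no fold is given.

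Genes that the mesothelium shares with lung epithelia were mostly higher in C185G, while most relatives of the markers that were called fell. Of 7 shared genes all 7 rose against C185Gneo, where 29.2% of all genes did, and 5 rose against WT, where 27.3% did. Among the 5 were the keratin Krt7 (0.73 against WT, limma adjusted p = 3.36e-05), podoplanin Pdpn (1.35, adjusted p = 0.00722) and the protease inhibitor Slpi (1.19, adjusted p = 4.64e-05). These genes summed to 5422 to 5966 CPM in WT, far above the 351 to 496 CPM of the 5 markers, and 6 of the 7 were within 0.34 log2 units of the other libraries in C185Gneo replicate 1. Of 12 family relatives 10 were in the files, and against WT 1 rose and 6 fell, with 55.0% of all genes called in either direction. The uroplakins Upk2 (-1.38) and Upk3a (-1.75) fell against WT (limma adjusted p = 0.00193 and 0.0138). Upk1a (0.07) and Upk3bl (0.54) were not called (limma adjusted p = 0.694 and 0.175). Upk2 was at a mean of at most 2.54 CPM in every group and Upk3a at a mean of at most 1.085. Upk3a had 10 to 23 counts per library in WT and 2 to 16 in C185G. Its levels overlapped between these groups, so its fall is uncertain. Upk3bl, a relative of Upk3b that lies next to it, had 8 to 26 counts per library, and Mslnl, next to Msln, had 11 to 42. Mslnl rose by 1.04 against WT (limma adjusted p = 0.00331), but how reads shared between relatives were assigned is not given, and both are uncertain. The zinc finger factors Egr1 (-1.10), Egr2 (-1.34), Egr3 (-0.85) and Egr4 (-0.99), which bind motifs like those of WT1, fell against WT (limma adjusted p = 9.15e-05, 0.000638, 0.0203 and 0.00376). Of 3 genes of WT1 protein partners none was called against WT, beside 55.0% of all genes. Against C185Gneo, Pawr (0.29) and Wtap (0.17) rose (limma adjusted p = 0.00211 and 0.0158), and Basp1 (0.29) was not called (adjusted p = 0.147). Of all genes 57.8% were called in that comparison, 29.2% upward.

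Markers of other cells moved with the mesothelial ones in part. The 15 mesenchymal markers, all in the files and none at 0 in any library, summed to 706 to 1059 CPM (WT), 301 to 813 (C185Gneo) and 1020 to 1298 (C185G). Against C185Gneo 10 rose and none fell, beside 57.8% of all genes called, and against WT 2 rose and 1 fell, beside 55.0%. Without C185Gneo replicate 1 these counts were 7 up with 1 down, and 7 up with 4 down, beside 54.9% and 56.2% of all genes. Vim, Col3a1 and Col1a2, the 3 of highest mean, differed from WT by 0.81, 0.29 and 0.58 (limma adjusted p = 0.0409, 0.445 and 0.113). The 11 endothelial markers in the files went the other way, with 0 up and 7 down against WT, beside 55.0% of all genes called, and a sum of 269 to 300 CPM in C185G against 306 to 374 in WT. The 5 mesothelial markers summed to 555 to 732 CPM in C185G, above every WT library, and C185Gneo ran from 70.9 to 600 CPM. The part of mesenchymal cells or RNA in these values was not tested, and neither was that of the lower AEC2 sum in C185G, which shares the scaling of every library.

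**Figure D5:**
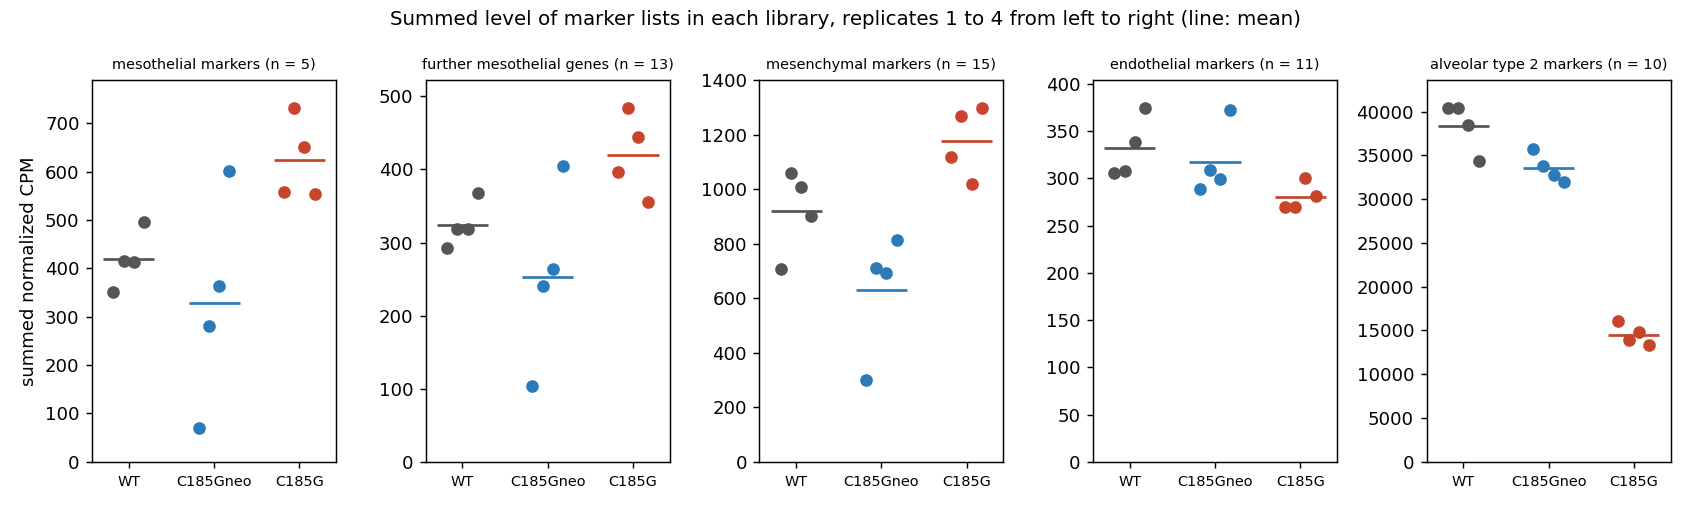
Summed normalized CPM of 5 marker lists in each library by genotype, with replicates 1 to 4 from left to right and the group mean as a line. Mean mesothelial and mesenchymal sums are highest in C185G, but in each of these panels some C185G libraries lie below a control library. The lowest library in these panels is C185Gneo replicate 1. Endothelial sums show neither, and the AEC2 sum is lowest in C185G.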

How the data were processed

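The deposited values are log2 values for 16080 Ensembl genes in each of 12 libraries. From the values, the authors added 0.5 to whole read counts and applied 1 factor per library before taking the log2. Per the submitters' processing notes STAR, limma and the mm10 genome were used; the counter, its annotation and its strand mode are not given in the sources. Whole counts were recovered within 1e-06 for 100% of values, so that depth is known. The planned branch for counts was not used because the unit is log2.

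The GENCODE mouse annotation of GRCm38 (release M21) named 16017 of the genes and 63 had no symbol; no annotated gene overlapped the 5 markers. Groups follow the genotype field. All libraries entered 1 limma fit (limma 3.58.1, R 4.3.3, trend and robust eBayes, no covariates), tested on simulated data, and genes with a p under 0.05 after Benjamini-Hochberg adjustment were called, with no filter. Pairs of markers were compared by exact permutation (scipy 1.17.1), with Python 3.11.15, pandas 2.3.3, data.table (version 1.17.8) and matplotlib 3.10.9 for the rest. The authors' scaling left medians of at most 0.0038 log2 over all genes, so a shift common to every transcript is invisible, and the added 0.5 understates changes of genes with few counts.

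The markers, gene lists and tests were chosen with earlier results of these data known. All 5 markers are named in every library, further mesothelial genes, relatives and partners where called or at a mean of at least 1 CPM, and the 5 genes whose deviations from group means correlate best with each marker, of which 1 is not reported here. Of other cell types, up to 3 genes of highest mean are named. Wt1os, Upk3a, Upk3bl and the comparison of Bnc1, Ildr2, Gpm6a, Aldh1a2, Rspo1 and Nkain4 across genotypes were added after their values were seen. So were leaving out libraries for pairs, and likeness, its genes' changes and sums without C185Gneo replicate 1. Other alternatives were scaling, pseudocount, filter, trend, weights, the libraries in the fit, the replicate number as a block and leaving out each library.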

Additional observations from a re-analysis of the deposited data

Results flagged for a closer look

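Each group of 4 libraries was checked for a lone sample with Dixon's gap ratio (the gap of the highest or lowest sample to its nearest neighbour over the group's range, against the 95% critical value for 4 samples) for the 5 markers and the genes of the mesothelial, relative and partner lists. Of 93 groups 3 passed, where chance gives about 4.7 at 1 in 20. All 3 were in WT replicate 2, the lowest library. The ratio, taken on log2 values, was 0.831 for Dmkn (55.4 CPM against 63.6 to 65.5 in the other WT libraries). It was 0.955 for Upk3a (0.566 CPM against 1.23 to 1.28) and 0.965 for Basp1 (27.0 CPM against 33.7 to 34.0). None of the 15 groups of the 5 markers passed. In C185Gneo their ratios were 0.589 to 0.739, since replicate 4 was high as well as replicate 1 low.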

How the results depend on the processing

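Over 22 alternatives, Msln and Upk1b stayed called in C185G against C185Gneo in all 22 (log2 1.12 to 2.13 and 1.03 to 2.00) and Wt1 in 21 (1.04 to 2.14), missing with the 8 libraries compared alone (limma adjusted p = 0.0513). Against WT these 3 were called in 2 of the 22, so 3 of 5 markers were called with the 8 libraries alone, and 0 to 3 when 1 library was left out, 3 without C185Gneo replicate 1. The sign of Upk3b against WT turned without WT replicate 4 (0.001) and without C185G replicate 4 (0.077), and that of Lrrn4 without C185G replicate 4 (0.002). Upk3b against C185Gneo turned without C185Gneo replicate 1 (-0.086). None of these 4 was called either way. Leaving out 1 library at a time gave -0.242 to 0.077 for Upk3b and -0.217 to 0.002 for Lrrn4 against WT, and -0.086 to 0.967 for Upk3b against C185Gneo. Genes called between C185Gneo and WT were 162 with array quality weights against 87, and 40 to 112 when 1 library was left out, a change of over 1.5 times without WT replicates 1, 3 or 4 or C185Gneo replicates 1, 2 or 3; no marker was among them. Leaving out 1 library gave 7932 to 9277 genes called in C185G against WT and 8414 to 9641 against C185Gneo. Library totals as scaling made 59.9% of the calls against WT higher, against 49.6%, and moved the median of all genes by 0.08, while the 5 markers kept their direction and side of the threshold. The cause of these shifts was not tested.

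Replicate numbers were not taken to pair the libraries, since not every same-numbered pair correlated above 0.1 in its deviations from group means in any comparison. The range was -0.149 to -0.019 for C185G and WT, -0.064 to 0.098 for C185G and C185Gneo, and -0.016 to 0.197 for C185Gneo and WT, where 3 of the 4 C185Gneo libraries correlated best with their own number, a hint from the data only. With the replicate block 8670, 9112 and 63 genes were called in the comparisons of C185G with WT, C185G with C185Gneo and C185Gneo with WT, and 0, 3 and 0 of the 5 markers.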
